A study of Rattus norvegicus with 8 samples.

Results

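Neurotrophin signalling in the rat brain was followed through 7 genes: the ligands Bdnf and Ntf3, the receptors Ntrk2, Ntrk3 and Ngfr, and the growth-related genes Nrn1 and Gap43. The genes were taken by symbol from the deposited expression tables, where all 7 were listed for both tissues at 1 locus each, out of 15892 symbols common to both tables. RNA sequencing of polyadenylated RNA had been done on 4 libraries of hypothalamus and 4 of hippocampus from male rats of the outbred Sprague Dawley stock. They were 2 months old at the start and were kept for 6 weeks on an omega-3 fatty acid diet, with docosahexaenoic acid (DHA) named in the labels, and with 15% fructose in the water. All 8 libraries share this feeding, so the values describe the tissues and not an effect of fructose or DHA; libraries of other feeding groups were not analysed here. Whether each library is a separate animal is not given in the labels, so the spread given is that between libraries.

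Neurotrophins are secreted proteins that support the survival and growth of neurons and adjust the strength of their synapses. Each is made as a precursor, is cut by proprotein convertases, and binds a Trk receptor tyrosine kinase on the target cell: brain-derived neurotrophic factor (BDNF) binds TrkB and neurotrophin-3 binds TrkC. The receptor p75 binds all neurotrophins and, together with sortilin, their precursors. In hippocampus, BDNF made by excitatory neurons is known for its part in activity-dependent plasticity, and in hypothalamus the BDNF and TrkB pair is known for restraining food intake.

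Levels are FPKM, fragments scaled to transcript length and to library size, as the authors deposited them, unless a scaled value is named. Differences are hypothalamus minus hippocampus on the log2(FPKM + 1) scale after each library was divided by a median-of-ratios factor, and they understate changes of low genes. The call "higher" or "lower" needed a difference of at least 1 in size and every library of 1 tissue on the same side of all libraries of the other. The tissues lie in separate tables, and a normalisation across them is not given in the sources used here, so no p-value was computed between them and every difference is one of tissue and table together. By this rule 1402 of 10554 genes over the filter (mean over the 8 libraries at least 1 FPKM) were higher in hypothalamus (13.3%) and 1414 were lower (13.4%), together 26.7%, and the libraries of 53.4% did not overlap whatever the size. With values as deposited the counts were 1912 higher and 1018 lower, or 65.3% of called genes higher in place of 49.8%, and the median difference of all genes was 0.18 in place of -0.04. Some genes used by every cell lay far apart between the tables. Gapdh was listed at 477 to 773 FPKM in hypothalamus and at 3.74 to 7.71 FPKM in hippocampus, a difference of 6.34. Ppia stood at 0.0806 to 2.00 and 5.09 to 7.71 FPKM (-2.45), and Pgk1 at 129 to 148 and 218 to 395 FPKM (-1.37). Actb stood at 1224 to 1578 and 1424 to 1640 FPKM (-0.32), and Tbp at 5.87 to 8.74 and 5.06 to 7.02 FPKM (0.09). Markers of pallial excitatory neurons separated the tissues, with 7 of 7 measured genes lower in hypothalamus and summed levels of 73.5 to 160 FPKM in hypothalamus against 2161 to 3289 FPKM in hippocampus. Tanycyte and ependymal markers, cells of the ventricle wall, gave 5 higher and 2 lower (Foxj1 and Crym) of 7. They summed to 368 to 545 FPKM in hypothalamus and 273 to 401 FPKM in hippocampus. Single genes made most of these sums, Vim at 304 to 469 FPKM in hypothalamus and Crym at 181 to 302 FPKM in hippocampus. Oligodendrocyte precursor markers gave 1 higher and 3 neither of 4, with sums of 65.4 to 121 and 40.0 to 49.0 FPKM. The higher gene, C1ql1, alone made 31.5 to 70.8 FPKM in hypothalamus and 6.09 to 13.2 FPKM in hippocampus of these sums. The neither ones were Pdgfra, at a difference of -0.28, Cspg4, at 0.26, and Sox10, at 0.88. Correlations across genes were 0.954 to 0.990 among hypothalamus libraries and 0.932 to 0.976 among hippocampus libraries. In bulk tissue, fewer cells of a type and less RNA per cell cannot be told apart.

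Of the 7 genes, 3 were lower in hypothalamus (Bdnf, Ntf3 and Nrn1), 2 were higher (Ngfr and Gap43) and 2 were neither (Ntrk2 and Ntrk3). The 5 called genes compare with 26.7% of all genes, and the 2 Trk receptor genes were those whose libraries overlapped. Since the 7 genes were chosen with earlier results of these data known, this count cannot show that the set is unusual. The calls of Bdnf, Ntf3 and Nrn1 held in each alternative that could be run for them. Those of Ngfr and Gap43, at differences just over 1, did not.

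**Figure D1:**
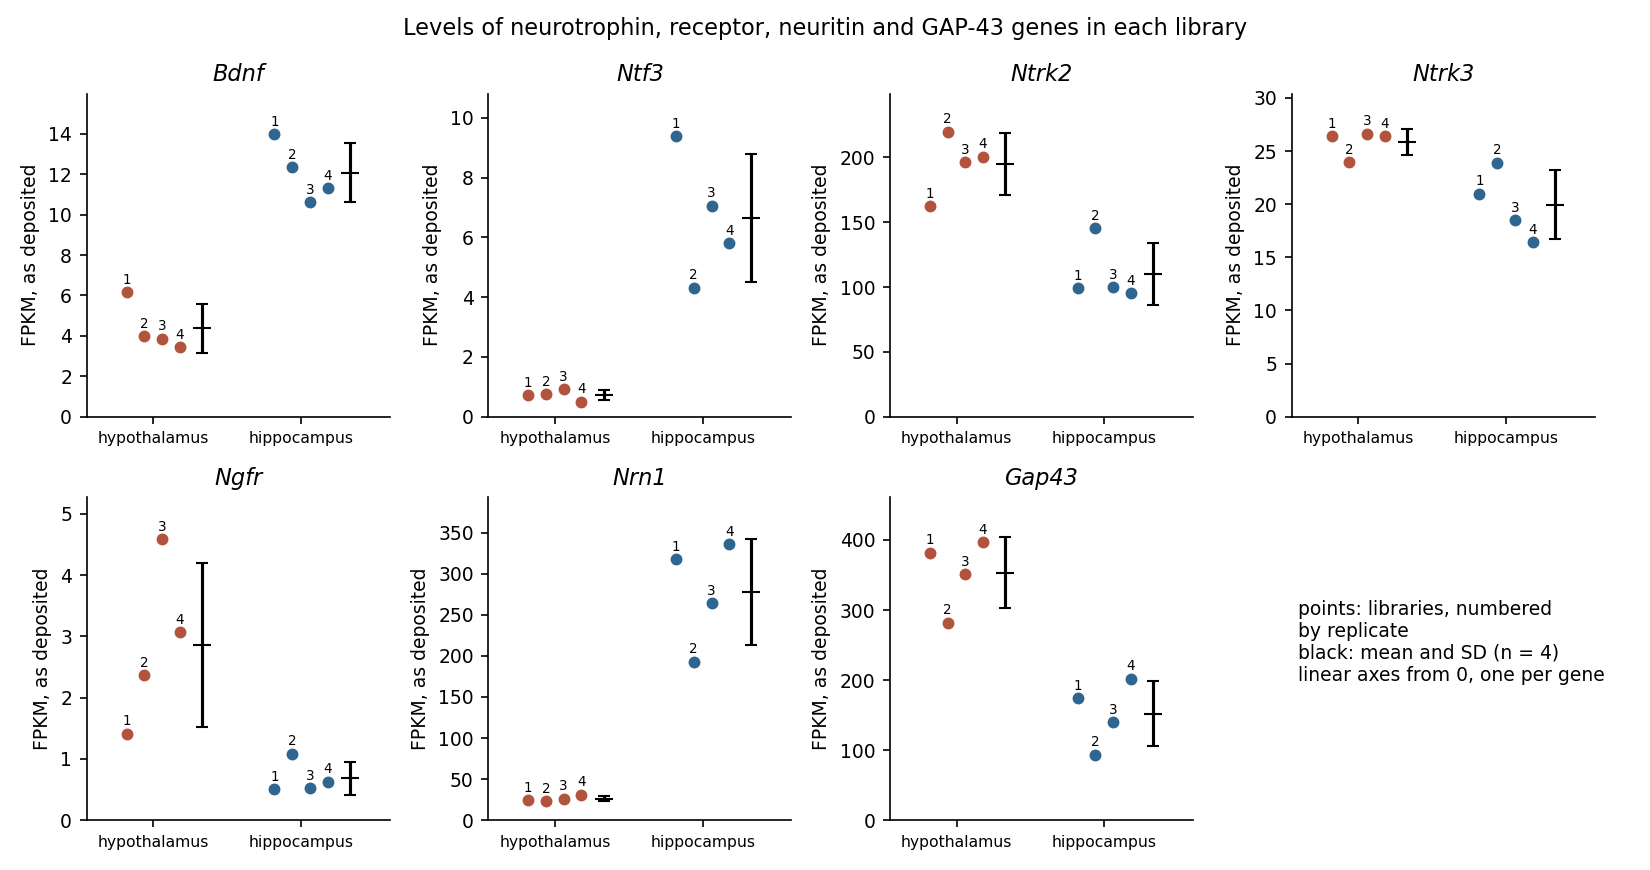
FPKM as deposited (linear axes from 0, 1 axis per gene) of the 7 genes in the 4 hypothalamus and 4 hippocampus libraries, numbered by replicate, with mean and SD in black. Nrn1 at 23.5 to 31.2 FPKM in hypothalamus against 193 to 336 FPKM in hippocampus shows the widest gap, and Ntrk3 at 24 to 26.6 against 16.4 to 23.9 FPKM the narrowest.

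Bdnf, the gene of the ligand of TrkB, was expressed in both tissues and was 3.28 times lower in hypothalamus by scaled mean. It stood at 6.18, 3.99, 3.87 and 3.42 FPKM in hypothalamus replicates 1 to 4 and at 14, 12.3, 10.6 and 11.3 FPKM in hippocampus replicates 1 to 4. The highest hypothalamus library lay below the lowest hippocampus library, and replicate 1 was the highest within both tissues. The scaled means were 4.0 ± 1.05 FPKM in hypothalamus and 13.1 ± 1.99 FPKM in hippocampus (SD, n = 4 each), a difference of -1.51 ± 0.17 (SE), and 13.2% of all genes compared had a difference at least as large in size. Ranked among all symbols of its library, Bdnf lay at percentile 44.5 to 52.7 in hypothalamus and at percentile 64.9 to 70.9 in hippocampus. Hypothalamus replicate 1, with the most Bdnf, had a pallial neuron marker sum of 73.5 FPKM against 153 to 160 FPKM in the other hypothalamus libraries, of which Camk2a alone made 69.4 FPKM. The median log2 level of these markers was lowest in replicate 2, at 0.52 against 0.72 in replicate 1. The dentate granule cell marker sum was highest in replicate 1, at 131 FPKM against 65.0 to 72.0 FPKM. Calb1 alone made 102 FPKM of that 131 FPKM, against 38.3 to 43.1 FPKM in the other hypothalamus libraries. By median log2 level the dentate markers were not raised in replicate 1, at 3.55 against 3.54 to 3.62.

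Ntf3, the gene of neurotrophin-3, the ligand of TrkC, was the lowest of the 7 genes in hypothalamus. It stood at 0.713, 0.75, 0.929 and 0.502 FPKM in hypothalamus replicates 1 to 4 and at 9.39, 4.32, 7.06 and 5.8 FPKM in hippocampus replicates 1 to 4. The tissues did not overlap, and the hippocampus libraries spanned 2.18 times from replicate 2, the lowest, to replicate 1, the highest. The scaled means were 0.666 ± 0.165 FPKM in hypothalamus and 7.21 ± 2.48 FPKM in hippocampus (SD, n = 4 each), which is 10.8 times lower in hypothalamus, with a difference of -2.26 ± 0.22 (SE). That difference was -3.22 with a pseudocount of 0.1, the setting less compressed at low values. Its percentile was 30.3 to 33.2 in hypothalamus and 50.8 to 63.6 in hippocampus. Dentate granule cell markers, of which 2 of 4 measured genes (Prox1 and C1ql2) were lower in hypothalamus and 2 were neither, summed to 65.0 to 131 FPKM in hypothalamus and 76.2 to 111 FPKM in hippocampus; their part in either ligand's level was not tested.

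Ntf4, the gene of neurotrophin-4, another ligand of TrkB, was under the filter, with a scaled mean over the 8 libraries of 0.287 FPKM. Its hypothalamus libraries held 0.0919, 0.108, 0.245 and 0.157 FPKM and its hippocampus libraries 0.340, 0.168, 0.562 and 0.557 FPKM, in the order of replicates. No call was made for it.

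Start regions of Bdnf and Ntf3, the called ligand genes, are shown because they are the sequences upstream of the genes that differed, and because Bdnf is known to be transcribed from several alternative promoters whose transcripts the gene-level FPKM adds together. RefSeq windows of 250 bases before to 50 after a start (build GRCr8) were matched by symbol for 2 of the 7 genes, 6 windows for Bdnf and 3 for Ntf3. Bdnf windows 5 and 6 overlap. They were searched on both strands for the cAMP response element TGACGTCA, its variant TCACGTCA, the E-box CACGTG and the GC box GGGCGG. The variant TCACGTCA was found in 1 Bdnf window, 38 bases before the start, and in 0.40% of 33469 windows of all genes. CACGTG was found in 1 Bdnf window, at position 20 after the start, and in 6.42% of all windows. GGGCGG was found in 1 Bdnf window and in 3 Ntf3 windows, among them a pair that are offset by 1 base, and in 33.1% of all windows. TGACGTCA was in none of these 9 windows and in 1.83% of all windows. Capitals mark the matches in the windows below, given 5′ to 3′ on the gene's strand. The shares of all windows are background and not a test of whether a match is unusual. A match is a description of letters, and none of these data measure binding or which start was used.
Bdnf window 4, chr3:116637608-116637907, plus strand: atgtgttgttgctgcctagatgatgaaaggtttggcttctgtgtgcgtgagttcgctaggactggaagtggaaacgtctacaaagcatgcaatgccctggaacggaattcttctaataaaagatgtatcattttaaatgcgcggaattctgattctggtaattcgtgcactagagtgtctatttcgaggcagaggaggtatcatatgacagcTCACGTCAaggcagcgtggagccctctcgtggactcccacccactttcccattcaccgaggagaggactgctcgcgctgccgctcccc
Bdnf window 2, chr3:116620585-116620884, plus strand: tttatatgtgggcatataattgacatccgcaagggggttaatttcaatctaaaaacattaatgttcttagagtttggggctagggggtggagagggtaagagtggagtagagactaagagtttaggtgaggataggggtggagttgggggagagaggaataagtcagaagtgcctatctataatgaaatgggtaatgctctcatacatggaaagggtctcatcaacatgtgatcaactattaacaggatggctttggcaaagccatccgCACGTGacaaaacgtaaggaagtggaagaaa
Ntf3 window 1, chr4:160670574-160670873, minus strand: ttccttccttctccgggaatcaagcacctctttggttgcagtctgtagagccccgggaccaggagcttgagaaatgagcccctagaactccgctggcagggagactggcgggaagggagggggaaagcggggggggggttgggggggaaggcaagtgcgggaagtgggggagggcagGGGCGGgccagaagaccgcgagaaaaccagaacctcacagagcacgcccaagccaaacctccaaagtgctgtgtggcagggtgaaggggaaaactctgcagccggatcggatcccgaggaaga
Ntf3 window 3, chr4:160668858-160669157, minus strand: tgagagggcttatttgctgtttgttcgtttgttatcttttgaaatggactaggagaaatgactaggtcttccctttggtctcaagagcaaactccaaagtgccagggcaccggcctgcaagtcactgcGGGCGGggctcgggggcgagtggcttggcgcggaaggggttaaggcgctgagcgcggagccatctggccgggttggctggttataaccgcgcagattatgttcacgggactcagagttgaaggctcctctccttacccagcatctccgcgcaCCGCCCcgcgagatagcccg

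Ntrk2, the gene of TrkB, was the most abundant of the 3 receptor genes (Ntrk2, Ntrk3 and Ngfr) in both tissues. It stood at 162, 220, 196 and 201 FPKM in hypothalamus replicates 1 to 4 and at 99.1, 146, 99.9 and 95.4 FPKM in hippocampus replicates 1 to 4. As deposited, all hypothalamus libraries lay above all hippocampus libraries, but after scaling hippocampus replicate 2 overlapped with hypothalamus. The scaled means were 179 ± 25.1 FPKM in hypothalamus and 119 ± 27.5 FPKM in hippocampus (SD, n = 4 each), a difference of 0.60 ± 0.18 (SE) that 49.5% of all genes reached in size. It was 0.83 with values as deposited. Ntrk2 is also transcribed as a truncated form in astrocytes, which a gene-level FPKM does not separate from the kinase form of neurons. The 9 astrocyte markers split into 3 higher, 1 lower (Slc1a2) and 5 neither, and their sums were 3313 to 4011 FPKM in hypothalamus and 3216 to 3370 FPKM in hippocampus. Hippocampus replicate 2 was the library of its tissue with the most Ntrk2. The median log2 level of the astrocyte markers was 8.05 there, against 7.48 to 7.57 in the other hippocampus libraries, although their sum was the lowest. The markers split in that library: Aqp4, Slc1a2, Slc1a3 and Gja1 were at their highest of the tissue, and Gfap, Aldh1l1, S100b and Aldoc at their lowest. In hypothalamus replicate 1, the library of its tissue with the least Ntrk2, the median was 7.73 against 7.99 to 8.06. There Slc1a2, Gja1, S100b, Aldoc and Gjb6 were at their lowest as deposited, and Aqp4 and Aldh1l1 at their highest. The part of astrocytes in the Ntrk2 level was not tested.

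Ntrk3, the gene of TrkC, differed least between the tissues of the 7 genes. It stood at 26.4, 24, 26.6 and 26.4 FPKM in hypothalamus replicates 1 to 4 and at 21.0, 23.9, 18.5 and 16.4 FPKM in hippocampus replicates 1 to 4. After scaling the tissues overlapped, at 23.8 ± 1.0 FPKM in hypothalamus and 21.7 ± 4.01 FPKM in hippocampus (SD, n = 4 each), a difference of 0.14 ± 0.13 (SE). It was 0.37 with values as deposited. Its SD over hypothalamus libraries was 0.06 on the log2 scale, where the median gene of at least 5 FPKM had 0.20, and 5.0% of those genes had a smaller one. Over hippocampus libraries its SD was 0.26, as was that of the median gene to this precision, and Bdnf (0.20) and Ngfr (0.23) varied less there.

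Ngfr, the gene of p75, was low in both tissues and higher in hypothalamus, by a margin that single libraries decided. It stood at 1.41, 2.36, 4.59 and 3.07 FPKM in hypothalamus replicates 1 to 4 and at 0.511, 1.08, 0.524 and 0.627 FPKM in hippocampus replicates 1 to 4. The tissues did not overlap in FPKM, but by percentile within the library they did, at 36.1 to 48.3 in hypothalamus and 33.0 to 37.9 in hippocampus. The scaled means were 2.64 ± 1.25 FPKM in hypothalamus and 0.744 ± 0.301 FPKM in hippocampus (SD, n = 4 each), a difference of 1.01 ± 0.28 (SE) that 27.4% of all genes reached in size. It was 1.64 with a pseudocount of 0.1. The difference was under 1 without hippocampus replicate 1 (0.96), 3 (0.96) or 4 (0.99) and without hypothalamus replicate 3 (0.81) or 4 (0.96), while the libraries still did not overlap.

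Schwann cells, the glia of peripheral nerve, are known to carry p75, and their markers were uneven among the hypothalamus libraries. The 4 markers (Pmp2, Prx, Ncmap and Cdh19) summed to 3.93, 2.52, 6.47 and 8.87 FPKM in hypothalamus replicates 1 to 4 and to 1.27 to 2.97 FPKM in hippocampus. Ncmap, a protein of peripheral nerve sheaths, stood at 0.0259, 0.0700, 1.85 and 3.36 FPKM in hypothalamus replicates 1 to 4 and was listed at 0 in all 4 hippocampus libraries. Over the filter was Cdh19 alone, which was neither, at 2.74, 1.55, 1.73 and 1.87 FPKM in hypothalamus replicates 1 to 4 and 0.906, 2.60, 1.56 and 1.11 FPKM in hippocampus replicates 1 to 4. The markers did not order the hypothalamus libraries alike. Ncmap, Prx and the sum were highest in replicates 3 and 4, the libraries with the most Ngfr, but Cdh19 was highest in replicate 1, and Pmp2 stood at 0.813, 0.407, 1.43 and 0.457 FPKM in replicates 1 to 4. Replicate 3 led in Ngfr and replicate 4 in the sum. Without replicates 3 and 4, an alternative chosen after seeing the data, the Ngfr difference was 0.64. Leaving out the libraries with the most Ngfr lowers its difference by itself, so this value says nothing about Schwann cells. Replicates 1 and 2 still lay above every hippocampus library, but narrowly. The closest scaled levels were 1.27 FPKM in hypothalamus replicate 1 and 1.19 FPKM in hippocampus replicate 2. Cholinergic neurons, which are known to carry p75 in the basal forebrain, had 2 of 4 measured markers higher in hypothalamus (Ache and Isl1) and 2 neither. The neither ones were Chat, at a difference of -0.40, and Slc5a7, at 0.67. The marker sums were 153 to 190 FPKM in hypothalamus and 66.1 to 81.2 FPKM in hippocampus. Ache alone made 126 to 165 FPKM and 54.3 to 67.5 FPKM of these sums. Mural and meningeal markers had 3 of 9 higher and 6 neither, with sums of 344 to 688 FPKM in hypothalamus and 127 to 385 FPKM in hippocampus. The part of these cells in the Ngfr level was not tested.

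**Figure D2:**
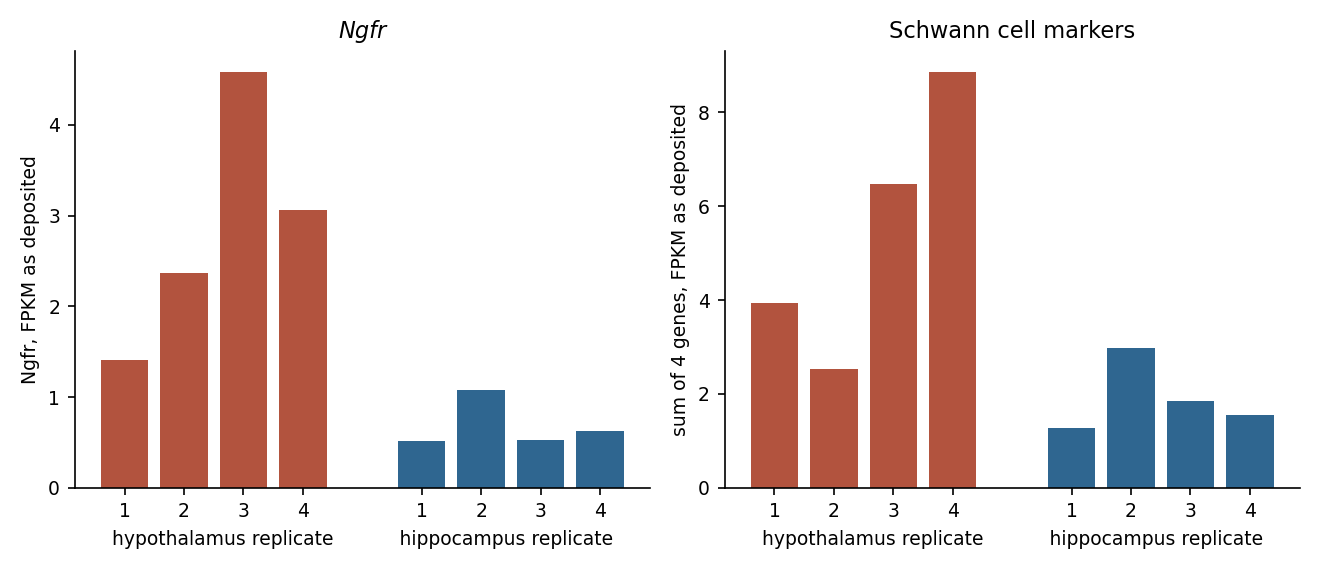
Ngfr (left) and the summed level of 4 Schwann cell markers (right) in FPKM as deposited, linear axes from 0, 1 bar per library. Hypothalamus replicates 3 and 4 stood at 4.59 and 3.07 FPKM for Ngfr and at 6.47 and 8.87 FPKM for the sum, in which Ncmap and Prx were highest there and Cdh19 was highest in replicate 1.

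Nrn1, the gene of neuritin, a small membrane-anchored protein that promotes neurite growth and is induced by activity and neurotrophins, had the largest difference of the 7 genes. It stood at 24.4, 23.5, 26.1 and 31.2 FPKM in hypothalamus replicates 1 to 4 and at 318, 193, 264 and 336 FPKM in hippocampus replicates 1 to 4. The tissues lay far apart, and hippocampus replicate 2 was the lowest of its tissue. The scaled levels differed 12.4 times, with a difference of -3.56 ± 0.20 (SE), and 1.11% of all genes had one at least as large in size. Nrn1 lay at percentile 98.4 to 99.0 of its library in hippocampus and at 78.9 to 83.0 in hypothalamus.

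Gap43, the gene of the growth-associated protein GAP-43, a kinase C substrate of growth cones and presynaptic terminals, was the most abundant of the 7 genes in hypothalamus and higher there by a narrow margin. It stood at 382, 282, 352 and 396 FPKM in hypothalamus replicates 1 to 4 and at 174, 93.7, 140 and 202 FPKM in hippocampus replicates 1 to 4. The tissues did not overlap, and replicate 2 was the lowest and replicate 4 the highest in both. The scaled means were 324 ± 43.5 FPKM in hypothalamus and 164 ± 49.4 FPKM in hippocampus (SD, n = 4 each), a difference of 1.02 ± 0.26 (SE) that 27.1% of all genes reached in size. The difference was under 1 without hippocampus replicate 2 (0.81) or 3 (0.98) and without hypothalamus replicate 1 (0.99) or 4 (0.96), and it was 1.25 with values as deposited. By percentile Gap43 lay at 98.7 to 99.1 in hypothalamus and 95.8 to 98 in hippocampus, without overlap.

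**Figure D3:**
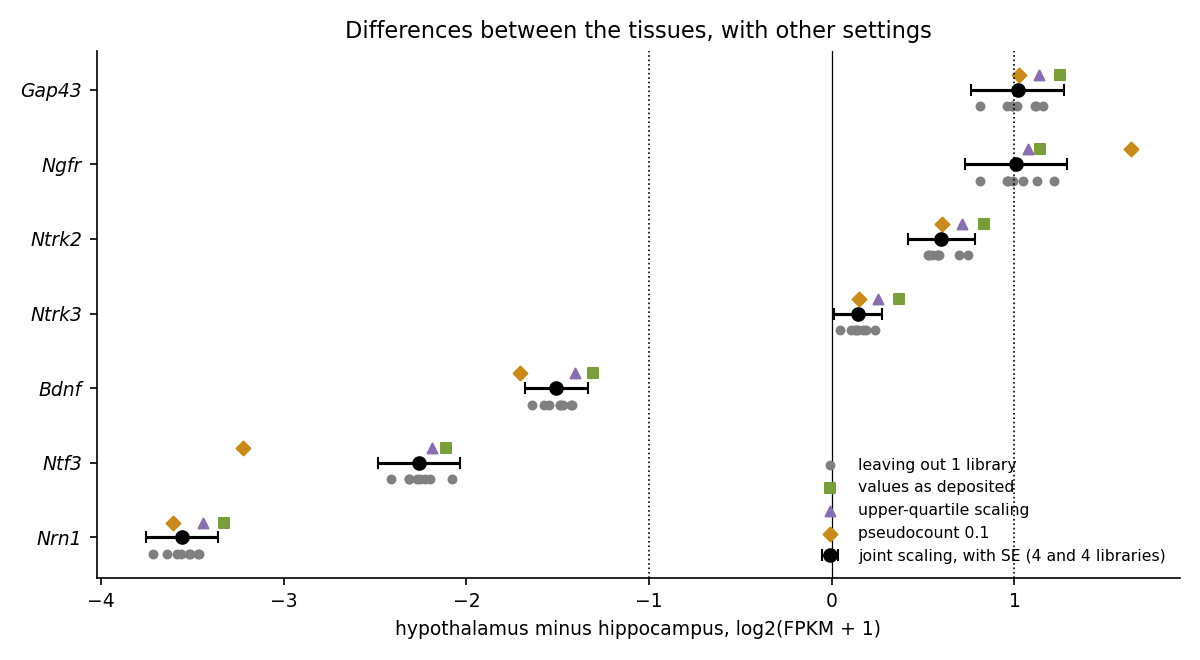
Difference of each gene, hypothalamus minus hippocampus on the log2(FPKM + 1) scale, with its SE in black (4 and 4 libraries), after leaving out 1 library (grey) and under 3 other settings (coloured, of which 1 has a pseudocount of 0.1 in place of 1); dotted lines mark a difference of 1 in size. Nrn1, Ntf3 and Bdnf lie left of -1 throughout, Ntrk2 and Ntrk3 lie between 0 and 1, and Ngfr and Gap43 lie on both sides of 1.

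The order of levels differed between the tissues. In hypothalamus it was Gap43, Ntrk2, Nrn1, Ntrk3, Bdnf, Ngfr and Ntf3, at 353, 195, 26.3, 25.8, 4.36, 2.86 and 0.723 FPKM on average. The neighbours Nrn1 and Ntrk3 could not be ordered, since Nrn1 was above Ntrk3 in 1 of 4 libraries, and Bdnf was above Ngfr in 3 of 4. In hippocampus it was Nrn1, Gap43, Ntrk2, Ntrk3, Bdnf, Ntf3 and Ngfr, at 278, 152, 110, 19.95, 12.1, 6.64 and 0.686 FPKM on average. There the ranges of Nrn1 and Gap43 overlapped although Nrn1 was above in 4 of 4 libraries, and Gap43 was above Ntrk2 in 3 of 4. The other neighbours in both tissues had ranges that did not overlap.

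Ratios of genes within a library, in which a scaling factor per library cancels, set ligands against receptors. Bdnf reached 3.81, 1.82, 1.97 and 1.71% of the Ntrk2 level in hypothalamus replicates 1 to 4 and 14.1, 8.47, 10.6 and 11.9% in hippocampus replicates 1 to 4. Ntf3 reached 2.70, 3.13, 3.49 and 1.90% of the Ntrk3 level in hypothalamus and 44.7, 18.1, 38.1 and 35.4% in hippocampus. Ligand RNA was lower relative to receptor RNA in every hypothalamus library than in any hippocampus library for both pairs, by -2.34 ± 0.31 (SE) for Bdnf to Ntrk2 and -3.56 ± 0.35 for Ntf3 to Ntrk3 on the log2 scale. Bdnf exceeded Ntf3 in all 8 libraries, 4.16 to 8.66 times in hypothalamus and 1.49 to 2.86 times in hippocampus. Ntrk2 exceeded Ntrk3 6.15 to 9.18 times in hypothalamus and 4.72 to 6.10 times in hippocampus, ranges that all but touched.

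Of the 6 pairs, Nrn1 and Gap43 were the one whose ratio changed most between the tissues and varied least within them. The Nrn1 level was 6.40, 8.33, 7.42 and 7.87% of Gap43 in hypothalamus replicates 1 to 4 and 1.83, 2.06, 1.89 and 1.66 times Gap43 in hippocampus replicates 1 to 4. The log2 ratios differed by -4.63 ± 0.10 (SE), with an SD of 0.16 in hypothalamus and 0.13 in hippocampus, although Gap43 alone had an SD of 0.47 over the hippocampus libraries. Ngfr reached 0.872 to 2.34% of Ntrk2 in hypothalamus and 0.515 to 0.743% in hippocampus. These ratios are descriptions, since a difference between the tables that is particular to a gene does not cancel in them.

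**Figure D4:**
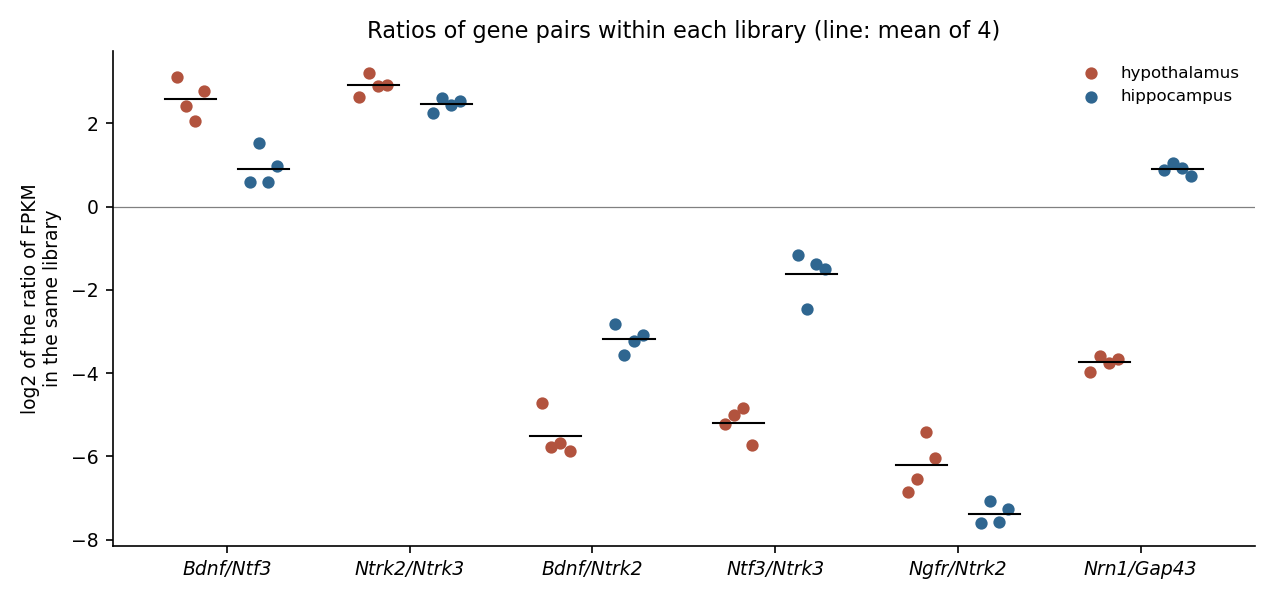
Log2 of the ratio of FPKM of 2 genes in the same library, for 6 pairs; points are libraries, lines the mean of 4. The tissues do not overlap for any pair, and the Nrn1 to Gap43 ratio lies at -3.97 to -3.59 in hypothalamus and at 0.73 to 1.04 in hippocampus.

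Hippocampus replicate 2 departed from the other hippocampus libraries in several of the 7 genes. It was lowest for Ntf3, Nrn1 and Gap43, by 0.47, 0.47 and 0.62 below the tissue mean on the log2 scale, and highest for Ntrk2, Ntrk3 and Ngfr, by 0.45, 0.28 and 0.34 above it. Without it the differences were -2.41 for Ntf3, -3.71 for Nrn1, 0.75 for Ntrk2, 0.24 for Ntrk3 and 1.12 for Ngfr, each with the same call as with all libraries, and 0.81 for Gap43, which was then under 1. A single fragment in it was worth 1.36 times the FPKM of one in replicate 3 and 1.44 times that of one in replicate 4, which is the direction fewer fragments give. The part of depth or tissue content in these deviations was not tested. Replicate 1 of both tissues, whose low values did not share whole-fragment steps with the other libraries, changed no call of the 7 genes when both were left out.

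Among the genes most like each of the 7 in pattern over the 8 libraries, by Pearson correlation of log2(FPKM + 1), Nrn1 was nearest to Ntan1, Cilp2 and Spats2 (r = 0.998 each). Ntf3 was nearest to Dclk2 (r = 0.998), Hpca and Syt3 (r = 0.994 each), and Bdnf to RGD1306151, Rnf6 (r = 0.994 each) and Ctnna2 (r = 0.993). Hpca, which encodes the hippocampal calcium sensor hippocalcin, stood at 116 FPKM in hypothalamus and 573 FPKM in hippocampus on average. Gap43 was nearest to Ndufa6 (r = 0.998), Igsf21 (r = 0.989) and Cox8a (r = 0.988), where Ndufa6 and Cox8a encode subunits of the respiratory chain. Ngfr was nearest to Htr7 (r = 0.989), Etv4 (r = 0.985) and Vegfa (r = 0.977), and Ntrk2 to Sec24b (r = 0.988), Helz (r = 0.984) and Ldb2 (r = 0.982). For Ntrk3 the highest values were 0.936 for Uck1, 0.927 for Lsamp and 0.926 for RGD1307621. With 8 libraries in 2 tissues these values mostly restate the tissue difference: 807 genes had r above 0.95 with Nrn1 and 626 with Bdnf, but none with Ntrk3. Around the tissue means, Ndufa6 remained the nearest gene to Gap43 (r = 0.993) and Etv4 became the nearest to Ngfr (r = 0.982).

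The other genes of the pathway were followed in 8 lists. Leaving the 7 genes out, 130 list genes passed the filter, with 13 called higher, 25 lower and 92 neither, beside 13.3% higher and 13.4% lower over all genes. With values as deposited the counts turned to 25 higher and 16 lower, so the balance between the directions depends on the scaling. The shares over all genes are also the background for the counts of each list below.

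Among receptors and sortilin-family genes, Sort1 and Sorl1 were lower in hypothalamus, Ngfr was higher and the other 5 of 8, Ntrk2 and Ntrk3 among them, were neither, with a list median of 0.37. Sort1, the gene of sortilin, the partner of p75 for precursor neurotrophins, stood at 34.1, 46.2, 44.8 and 43.5 FPKM in hypothalamus replicates 1 to 4 and at 112, 144, 111 and 107 FPKM in hippocampus replicates 1 to 4, a difference of -1.70 ± 0.15 (SE). Its direction was thus the opposite of Ngfr. Sort1 had 2 loci in the hippocampus table and 1 in the hypothalamus table, as did Nf1, Lingo1 and Fgfr1 below. Sorl1, the gene of a related sorting receptor, stood at 22.2 ± 1.11 FPKM in hypothalamus and 45.1 ± 11.9 FPKM in hippocampus (SD, n = 4 each), a difference of -1.19 that was -0.96 with values as deposited.

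Of 8 measured genes for the cleavage of precursors, 1 was lower in hypothalamus and 7 were neither (median -0.31). Cpe, a carboxypeptidase of secretory granules that also sorts precursor BDNF, stood at 655 ± 31.8 FPKM in hypothalamus and 1436 ± 190 FPKM in hippocampus (SD, n = 4 each), a difference of -1.36 ± 0.09 (SE). Serpini1, the gene of neuroserpin, an inhibitor of tissue plasminogen activator, stood at 51.0 ± 22.9 FPKM and 81.3 ± 20.4 FPKM and was neither, but was called lower at -1.21 without hypothalamus replicate 1. A further 7 listed genes, among them Pcsk1 and Mmp9, were under the filter.

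Of 37 adaptor and kinase genes downstream of Trk receptors, 7 were called lower (18.9%) and 2 higher (5.41%). Over all genes these shares were 13.4% and 13.3%. The other 28 were neither, and the list median was -0.34. With values as deposited 5 were lower and 3 higher, and with upper-quartile scaling 5 and 2. Map2k1, the gene of the kinase MEK1, stood at 106, 67.3, 72.7 and 77.4 FPKM in hypothalamus replicates 1 to 4 and at 248, 252, 251 and 210 FPKM in hippocampus replicates 1 to 4, a difference of -1.81 ± 0.15 (SE). Hras, a small GTPase of the same cascade, had the largest difference at -4.00, with 21.9 ± 1.14 FPKM in hypothalamus and 320 ± 94.3 FPKM in hippocampus (SD, n = 4 each); it had 2 loci in the hippocampus table and 1 in the other. The genes that were higher encode adaptors of 1 family: Sh2b2 stood at 6.79 ± 1.42 FPKM in hypothalamus and 0.438 ± 0.123 FPKM in hippocampus, and Sh2b1 at 25.4 ± 3.29 and 8.37 ± 1.81 FPKM (SD, n = 4 each).

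Of 23 measured genes on the list of Trk pathway inhibitors, 10 were called lower (43.5%) and 1 higher (4.35%), with 12 neither and a median of -0.73. The list also holds Slitrk1 to Slitrk5, of which Slitrk3 and Slitrk4 were called lower. Whether each listed gene restrains Trk signalling was not tested. Dusp6 and Dusp5, phosphatases that switch off ERK kinases and are themselves induced by ERK signalling, had the largest differences. Dusp6 stood at 5.68, 5.84, 4.75 and 4.07 FPKM in hypothalamus replicates 1 to 4 and at 33.1, 53.2, 31.6 and 27.7 FPKM in hippocampus replicates 1 to 4, a difference of -2.80 ± 0.23 (SE). Dusp5 stood at 0.868 ± 0.362 FPKM in hypothalamus and 8.09 ± 1.09 FPKM in hippocampus (SD, n = 4 each), a difference of -2.45. The gene that was higher, Nf1, encodes the GTPase-activating protein neurofibromin; its difference of 1.03 was 0.88 without hippocampus replicate 1 and 0.99 without hypothalamus replicate 1. Ptprs, the most abundant of the list, was neither, at 85.1 ± 1.74 FPKM in hypothalamus and 88.5 ± 19.3 FPKM in hippocampus. With values as deposited 6 genes of the list were lower and 2 higher, and without hippocampus replicate 2 the numbers were 7 and 1.

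The 19 genes for partners of p75 gave 1 higher, 2 lower and 16 neither (median 0.08). Both lower genes encode members of the receptor complex for myelin inhibitors: Rtn4r, the gene of the Nogo receptor, stood at 8.41 ± 1.88 FPKM in hypothalamus and 30.5 ± 7.18 FPKM in hippocampus, and Lingo1 at 34.6 ± 10.2 and 76.6 ± 18.3 FPKM (SD, n = 4 each). The Lingo1 difference of -1.38 was -0.96 without replicate 1 of both tissues. Ngfrap1, the gene of a protein that binds the p75 death domain, was higher, at 310 ± 23.9 FPKM in hypothalamus and 106 ± 17.7 FPKM in hippocampus, a difference of 1.32 ± 0.14 (SE). Rtn4, the gene of the inhibitor Nogo, overlapped at 199 ± 35.9 and 460 ± 288 FPKM and was called lower at -1.63 without hippocampus replicate 1. Arhgdia was neither, at 423 ± 126 and 244 ± 96.8 FPKM.

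Growth-associated genes, with Gap43 and Nrn1 counted among them, gave 5 higher (26.3%), 2 lower (10.5%) and 12 neither of 19 measured (median 0.40). The lower ones were Nrn1 and Nrgn, and beside Gap43 the higher ones were Pcp4, Marcksl1, Tubb3 and L1cam. Pcp4, the gene of a small calmodulin-binding protein, stood at 874 ± 90.6 FPKM in hypothalamus and 39.4 ± 16.8 FPKM in hippocampus (SD, n = 4 each), a difference of 4.32. Nrgn, the gene of neurogranin, a postsynaptic protein that shares its calmodulin-binding domain with GAP-43, was lower, at 110, 143, 154 and 170 FPKM in hypothalamus replicates 1 to 4 and 737, 254, 399 and 581 FPKM in hippocampus replicates 1 to 4. Marcksl1 was higher at 14 ± 2.84 FPKM in hypothalamus and 2.73 ± 0.703 FPKM in hippocampus, and Stmn3, a microtubule regulator, was neither at 625 ± 153 and 419 ± 154 FPKM.

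Other neurotrophic families, 21 genes in all, gave 5 higher (23.8%), 2 lower (9.52%) and 14 neither (median 0.53). Vgf, the gene of a secreted precursor of neuroendocrine peptides, stood at 76.0, 124, 126 and 130 FPKM in hypothalamus replicates 1 to 4 and at 24.5, 15.9, 16.4 and 19.7 FPKM in hippocampus replicates 1 to 4, a difference of 2.27 ± 0.25 (SE). Vgf was thus on the opposite side from Bdnf. Fgf1 was higher at 20.4 ± 7.81 FPKM in hypothalamus and 2.40 ± 1.62 FPKM in hippocampus (SD, n = 4 each), with 2 loci in the hypothalamus table and 1 in the hippocampus table. Ptn, the gene of pleiotrophin, and Fgfr1 were lower, at differences of -1.14 and -1.06, and both were under 1 in size with values as deposited, at -0.90 and -0.83. Ptn was at -0.99 without hippocampus replicate 4, and Fgfr1 at -0.92 without hippocampus replicate 2 and -0.93 without hypothalamus replicate 1. Mdk, the gene of midkine, was neither, at 76.3 ± 8.95 FPKM in hypothalamus and 54.1 ± 48.2 FPKM in hippocampus.

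**Figure D5:**
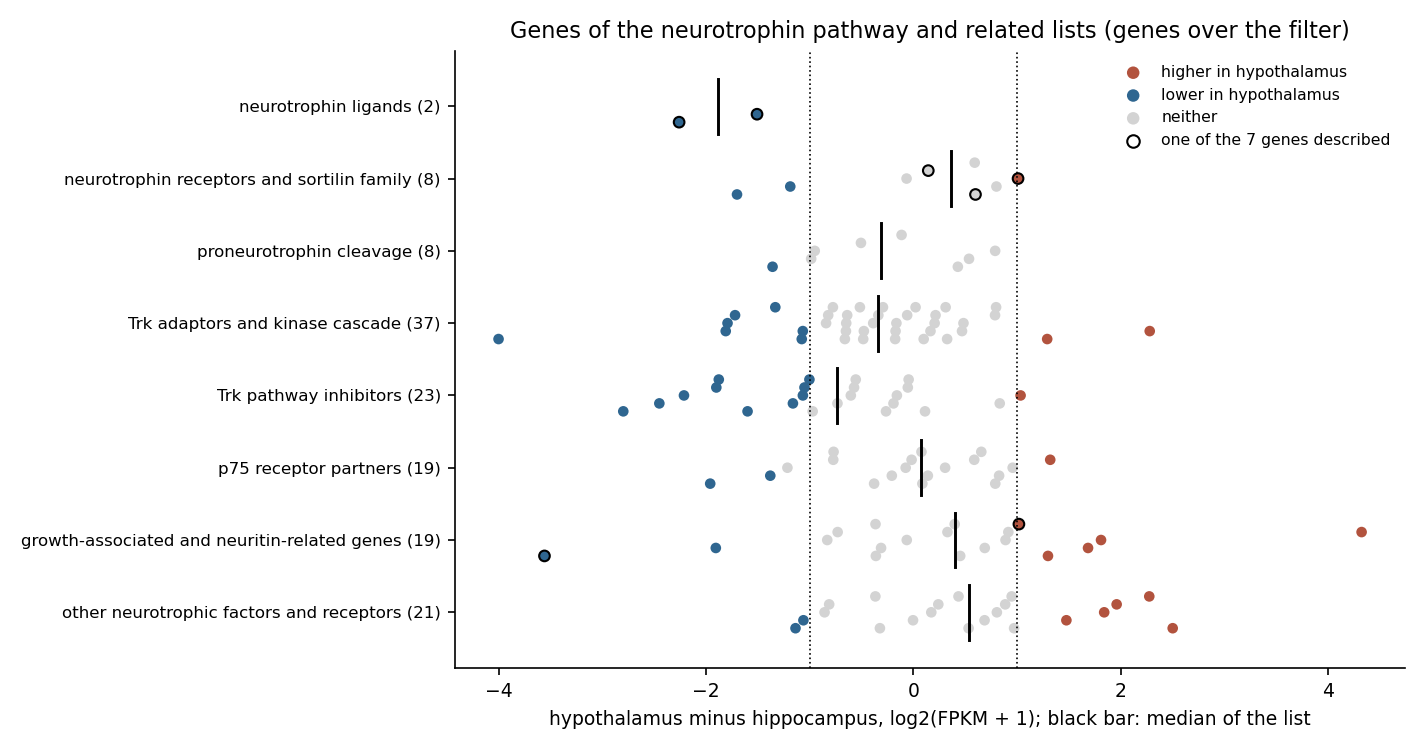
Difference of each gene over the filter in the 8 lists (number of genes in brackets), hypothalamus minus hippocampus on the log2(FPKM + 1) scale; coloured points are called genes, black bars list medians, ringed points genes of the 7 described. Of 23 genes on the inhibitor list 10 lie at or left of -1 as called genes, and the ligand list holds only Bdnf and Ntf3.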

How the data were processed

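Libraries were made from poly-A selected RNA and read on an Illumina sequencer, per the labels' protocols. For each tissue the authors deposited 1 table of FPKM with a status beside each value. TopHat, TopHat2, Bowtie, Bowtie2, Cufflinks, Cuffdiff and build rn5 are named per the submitters' processing notes; for versions and settings, not given in the sources used here. All values of the 7 genes had status OK. FPKM were summed over loci of a symbol, and libraries were divided by median-of-ratios factors over symbols in both tables (1.12, 1.07, 1.08 and 1.09 for hypothalamus, 0.892, 0.911, 0.947 and 0.950 for hippocampus). Genes with a scaled mean of at least 1 FPKM were compared with a pseudocount of 1 (pandas 2.3.3, numpy 2.4.6), and calls were tested on simulated data. The number of reads is unknown; low values fell on whole-fragment steps (tolerance 0.01 in natural log units) at 90.0 to 94.4% of loci among replicates 2, 3 and 4 of a tissue and at 8.20 to 12.5% with replicate 1, which gives relative depth only. The 7 genes and the lists were chosen with earlier results of these data known. Genes named were the 7, from each list the 2 largest called differences in each direction and the 2 highest levels, from marker lists the called genes as counts, and the 3 genes most like each of the 7; further genes (Ntf4, Pcsk1, Mmp9, single markers) were chosen after their values were seen, and some genes of the lists are not reported here and were left out of their counts and sums. The labels do not say whether same-numbered libraries come from 1 animal, so numbers were not treated as pairs. Correlations of deviations were -0.08, -0.06, 0.08 and 0.14 for same numbers and -0.20 to 0.20 for other numbers. With 4 libraries in each tissue these values cannot show whether same-numbered libraries belong together. Alternatives covered scaling, pseudocount, filter, loci, status and left-out libraries.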

Additional observations from a re-analysis of the deposited data

Results flagged for a closer look

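In hippocampus, replicate 2 stood apart for Ntrk2, at 146 FPKM against 95.4 to 99.9 FPKM in the other 3 libraries, a gap of 0.911 of the tissue's range. In hypothalamus, replicate 2 stood apart for Ntrk3, at 24 FPKM against 26.4 to 26.6 FPKM in the other 3, a gap of 0.905 of the range. These were 2 of 26 sets of 4 values examined (7 genes and 6 ratios in each tissue), and chance sets apart about 1 in 20. Both gaps are those of FPKM as deposited. After scaling, Ntrk2 in hippocampus replicates 1 to 4 stood at 111, 160, 105 and 100 FPKM. Scaled Ntrk3 in hypothalamus replicates 1 to 4 stood at 23.6, 22.4, 24.7 and 24.3 FPKM. In both sets replicate 2 then stood less far apart, relative to the range, than as deposited.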

How the results depend on the processing

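The calls of Bdnf (-1.71 to -1.30 over 19 alternatives), Ntf3 (-3.22 to -2.07 over 18) and Nrn1 (-3.71 to -3.33 over 19) were lower in each alternative run for them, and Ntrk2 (0.53 to 0.83) and Ntrk3 (0.05 to 0.37) were neither in all 19. Ngfr was called in 12 of 18 and Gap43 in 14 of 19. Leaving out 1 library left 0 to 2 of the 7 genes higher in place of 2. Without hypothalamus replicates 3 and 4 together, an alternative chosen after seeing the data, 0 were higher. These libraries held the most Ngfr, so a smaller Ngfr difference followed from the choice. A filter at 5 FPKM left 1, since Ngfr then fails the filter. With a pseudocount of 0.1 Ntf3 was at -3.22 and Ngfr at 1.64, as that scale compresses low values less. With values as deposited Ntrk3 was at 0.37, and list genes outside the 7 were higher for 25 and lower for 16 in place of 13 and 25; upper-quartile scaling gave 17 and 19; the cause was not tested. In single lists as deposited, p75 partners gave 4 higher in place of 1, other neurotrophic factors 8 higher and 0 lower in place of 5 and 2, cleavage genes 2 higher in place of 0, and inhibitors 6 lower in place of 10. Of all genes, 1431 were higher and 1431 lower under the replicate block, in which the 4 same-numbered differences share 1 sign, against 1402 and 1414 without it, and the block changed no call of the 7 genes. The number of fragments behind each level is unknown, also for Ntf3 in hypothalamus and Ngfr in hippocampus, whose means are under 1 FPKM.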
